A study of Mus musculus with 4 samples.

Results

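Gja1, Gjb2, Gjb5 and Gjb6 encode the connexins Cx43, Cx26, Cx31.1 and Cx30, and the data describe their RNA in single cells of mouse epidermis. The 4 genes were chosen by symbol, as connexins known from keratinocytes, from the 32479 genes of the files, and each matched 1 gene. The study deleted ceramide synthase 4 in the epidermis and compared the skin of these mice with that of littermates. CerS4epi-/- mice carried the genotype CerS4fl/flK14Cre+, in which Cre is driven by the keratin 14 promoter and is therefore active in basal keratinocytes and in the follicle, gland and epidermal cells derived from them, but not in immune cells. Control mice were CerS4fl/flK14Cre-, so that both groups carried the floxed alleles and only the CerS4epi-/- mice carried Cre. All were female C57BL/6N mice at postnatal day 19, with 2 mice in each group, and cells came from the digested epidermis of back skin. The cells were labelled with sample tags and loaded on BD Rhapsody, and reads were assigned to samples by tag. A library below means the counts of 1 mouse, and which mice shared a cartridge is not stated. In total 34150 cells were analysed, of which 33325 fell into the 13 cell classes that were large enough to be tested. Levels are given as CPM, the counts of a gene in the summed cells of a class in one mouse after scaling every such sum to the same total, always for control mice 1 and 2 first and CerS4epi-/- mice 1 and 2 second. CPM of a 3′ counting method were compared between cells and mice, and not between genes.

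Connexins are channel proteins that span the membrane several times. Several of them form a hemichannel, and hemichannels of neighbouring cells dock to a gap junction, through which ions and small metabolites pass. In the epidermis different connexins are made in different layers, and inherited variants of several of these genes cause disorders of hearing, skin and hair. Cx26 and Cx30 are found mainly in follicle, gland and thick epidermis, and rise in wounded or hyperproliferative epidermis, whereas Cx43 is widespread and Cx31.1 is known from differentiating keratinocytes.

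In the annotation of GRCm39, Gja1 lies at chr10:56253241-56278609 on the plus strand, Gjb2 at chr14:57335919-57342240, Gjb6 at chr14:57360757-57371087 and Gjb5 at chr4:127248602-127252001, the last 3 on the minus strand. Gjb2 and Gjb6 are neighbours with 18516 bases between them. The coding sequences hold 382 codons for Gja1, 226 for Gjb2, 271 for Gjb5 and 261 for Gjb6. In pairwise alignment Gjb2 and Gjb6 were identical at 75.7% of the aligned coding bases, and the other pairs of the 4 genes at 63.4% to 67.2%. Long non-coding RNA genes overlap Gja1 (Gm68148) and Gjb6 (Gm32912) on the opposite strand, and reads of such a pair are told apart only by strand.

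The promoters of Gja1, Gjb2 and Gjb5 are shown because the tests below called these 3 genes between genotypes. The first pair was called upwards in the same classes and Gjb5 downwards in others. For Gjb2 a filter on low counts left no other outcome, as set out below. For Gja1 in Cst6-high follicle cells that filter passed a rise more readily than a fall. Each stretch holds the 250 bases before the gene's start in RefSeq (GRCm38.p6), read 5′ to 3′ on the gene's own strand, with motif matches in capitals.
Gja1, chr10:56377050-56377299, plus strand: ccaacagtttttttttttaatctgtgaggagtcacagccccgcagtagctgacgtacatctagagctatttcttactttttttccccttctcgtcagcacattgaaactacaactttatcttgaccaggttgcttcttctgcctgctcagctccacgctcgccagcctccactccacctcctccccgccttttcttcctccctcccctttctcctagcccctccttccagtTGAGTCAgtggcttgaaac
Gjb2, chr14:57104703-57104952, minus strand: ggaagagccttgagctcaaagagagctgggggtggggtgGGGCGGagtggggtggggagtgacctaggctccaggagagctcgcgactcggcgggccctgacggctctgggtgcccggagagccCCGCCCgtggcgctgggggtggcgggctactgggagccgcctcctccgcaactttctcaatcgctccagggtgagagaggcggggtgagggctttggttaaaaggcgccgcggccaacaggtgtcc
Gjb5, chr4:127358165-127358414, minus strand: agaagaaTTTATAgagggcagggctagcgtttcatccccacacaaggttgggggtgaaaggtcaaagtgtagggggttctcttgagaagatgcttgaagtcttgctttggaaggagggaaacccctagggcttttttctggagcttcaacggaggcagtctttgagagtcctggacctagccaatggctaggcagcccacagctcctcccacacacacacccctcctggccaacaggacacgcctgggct
Motifs were searched on both strands as the AP-1 site (TGANTCA), the GC box (GGGCGG), the TATA box (TATAAA) and the E box (CACGTG). Gja1 held 1 AP-1 match, which began 19 bases before the start, and 6.75% of the 32851 RefSeq windows of this length held one. The Gjb2 window held GC boxes 211 and 126 bases before the start, the second on the reverse strand, as did 32.7% of windows, and its GC content was 69.2% against a median of 52.4%. The single Gjb5 match was a TATA box on the reverse strand 243 bases before the start, a motif present in 12.4% of windows. The Gjb6 window held none of these letters.

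The libraries held 39231945 to 53106317 counts and 7567 to 9086 cells each, with a median of 3266.5 to 3884 counts per cell. Cells were assigned to classes by marker counts, for instance Krt14, Krt5 and Krt15 without Krt1 and Krt10 for basal cells of the interfollicular epidermis (IFE basal), and 2.04% of cells met no gate. Cers4, the gene targeted, served as a check of the labels and stood at 2222 and 1338 CPM in the sebaceous-gated cells of the control mice and at 241 and 380 CPM in those of the CerS4epi-/- mice. Libraries of the same genotype shared 0 cell barcodes, whereas libraries of different genotypes shared 64 to 102, and genotype and the processing of libraries by genotype cannot be told apart. More barcodes exceeded the mitochondrial limit in the CerS4epi-/- mice, 363 and 316 against 68 and 91. With 2 mice against 2, an exact permutation test of a single value cannot go below 0.333. Groups that do not overlap are thus no test by themselves, and the share of all genes that separate so was not counted. The p-values come from edgeR fits, which set a difference against the spread between mice. That spread is estimated with the help of all genes tested in a class. Whether it includes differences of processing cannot be told. A lower CPM of a class may reflect fewer cells that make the RNA or less RNA per cell, which the sums do not tell apart.

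Gja1 had 133 and 122 CPM over all cells of the control mice and 152 and 150 CPM over those of the CerS4epi-/- mice. It was high at the base of the epidermis and in the inner follicle, and low in differentiated cells. In IFE basal cells it stood at 311 and 278 CPM in control mice and at 263 and 221 CPM in CerS4epi-/- mice. Early spinous cells, which have begun to make Krt1 and Krt10 but keep basal keratins, held 161 and 162 CPM against 152 and 102 CPM. In late spinous cells, which have lost basal keratins, the level was 80.4 and 74.3 CPM against 98.7 and 51.8 CPM. All 4 mice thus showed the same descending order. The early granular class, marked by Lor, Flg2 and Nccrp1, held 17.5 and 14.9 CPM against 13.01 and 7.96 CPM, and the late granular class, marked by Lce1 genes, 10.4 and 8.06 CPM against 8.07 and 11.1 CPM.

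Fitted within mice against IFE basal cells, Gja1 was lower by edgeR in early spinous cells (log2 fold change -0.82, SE 0.31, adjusted p = 0.0329), in late spinous cells (-1.58, SE 0.32, adjusted p = 2.15e-05), in early granular cells (-3.73, SE 0.37, adjusted p = 4.58e-13) and in late granular cells (-3.39, SE 0.44, adjusted p = 1.54e-09). Of all genes tested, 37.2%, 67.2%, 80.1% and 77.7% differed in these contrasts. The scaling by TMM shifts all differences of late granular cells upwards by 1.48 on the log2 scale and those of early granular cells by 0.58 relative to class totals, and with class totals Gja1 was lower by more, with log2 fold changes of -4.87 and -4.31. Early and late spinous cells also differed from each other (0.76, SE 0.32, adjusted p = 0.0418 by edgeR). Cycling basal cells, with 304 and 263 CPM against 261 and 265 CPM, could not be separated from IFE basal cells (-0.01, SE 0.31, adjusted p = 0.995; 30.2% of genes differed). The early spinous call did not hold under 6 of 14 alternatives, with adjusted p up to 0.141. Any 1 mouse left out took it past the threshold, with adjusted p = 0.0519 without control mouse 1, 0.051 without control mouse 2, 0.0902 without CerS4epi-/- mouse 1 and 0.0764 without CerS4epi-/- mouse 2.

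**Figure D1:**
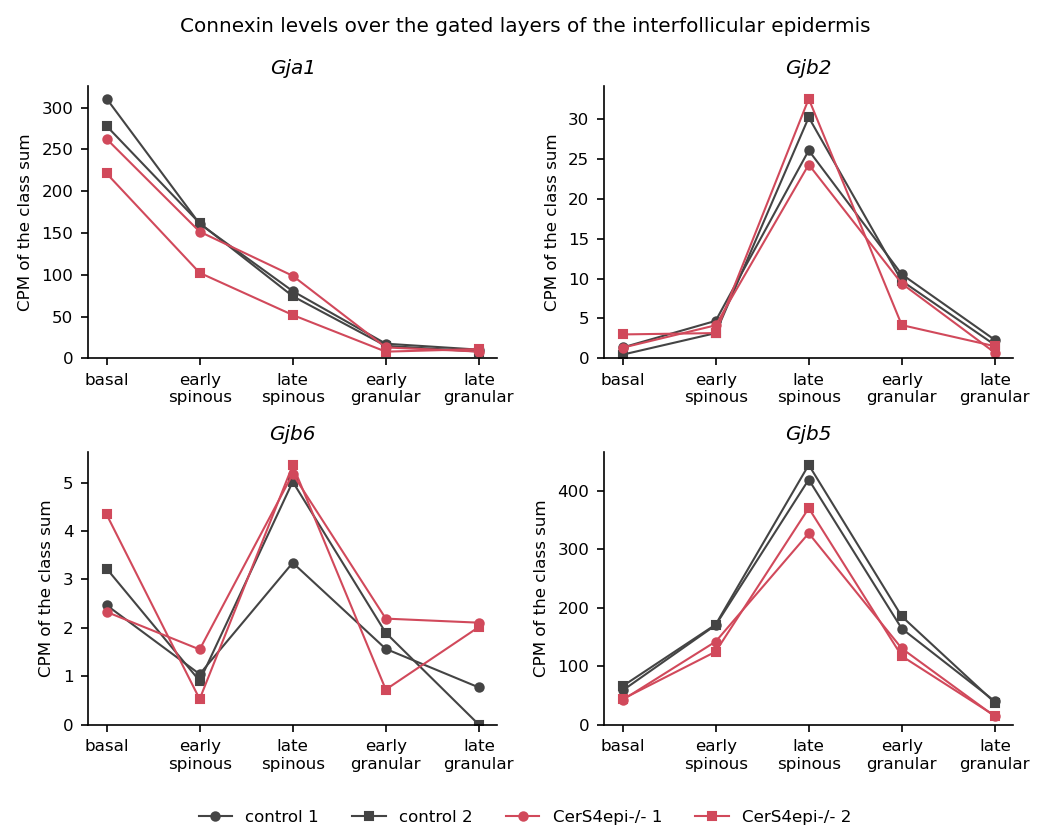
Levels of the 4 connexins over the gated layers of the interfollicular epidermis, from basal to late granular (horizontal axis), in CPM of the class sum (vertical axis, a separate scale for each gene). Each line is 1 mouse, grey for control and red for CerS4epi-/-. Gja1 descends from 221 to 311 CPM in basal cells, whereas Gjb2 and Gjb5 peak in late spinous cells in all 4 mice.

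Outside the interfollicular layers Gja1 was high in the Krt75-gated cells, a class marked by genes of the inner bulge, with 471 and 408 CPM in control mice and 859 and 516 CPM in CerS4epi-/- mice. This class differed from IFE basal cells (1.06, SE 0.34, adjusted p = 0.0102 by edgeR; 37.6% of genes differed), and its lowest mouse lay above every mouse of the IFE basal class. Without CerS4epi-/- mouse 1 the difference was 0.84 (adjusted p = 0.12). Sebaceous-gated cells, too few to be tested with 18, 7, 34 and 39 cells, held 261 and 242 CPM against 255 and 332 CPM. The Krt79- and Krt17-positive follicle cells without basal keratins were low: those with little Cst6 held 6.79 and 20.7 CPM against 10.1 and 20.7 CPM, and were lower than IFE basal cells (-4.17, SE 0.43, adjusted p = 1.07e-11; 51.3% of genes differed). Immune cells served as the comparison for free RNA. T cell-gated cells held 25.1 and 71.7 CPM against 10.7 and 38.4 CPM of Gja1, and Langerhans cell-gated cells 22.6 and 72.9 CPM against 42.8 and 29.3 CPM. Both stood below IFE basal cells in every mouse, in contrasts in which 46.3% and 36.2% of genes differed. A Gja1 count was found in 2.11% to 13.2% of T cell-gated cells (median depth 1549 to 1926.5 counts) and in 37.8% to 49.8% of IFE basal cells (2581 to 3161 counts). Barcodes of 10 to 200 counts, which hold mostly free RNA, had 103 to 130 CPM, above the levels of the granular layers.

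**Figure D2:**
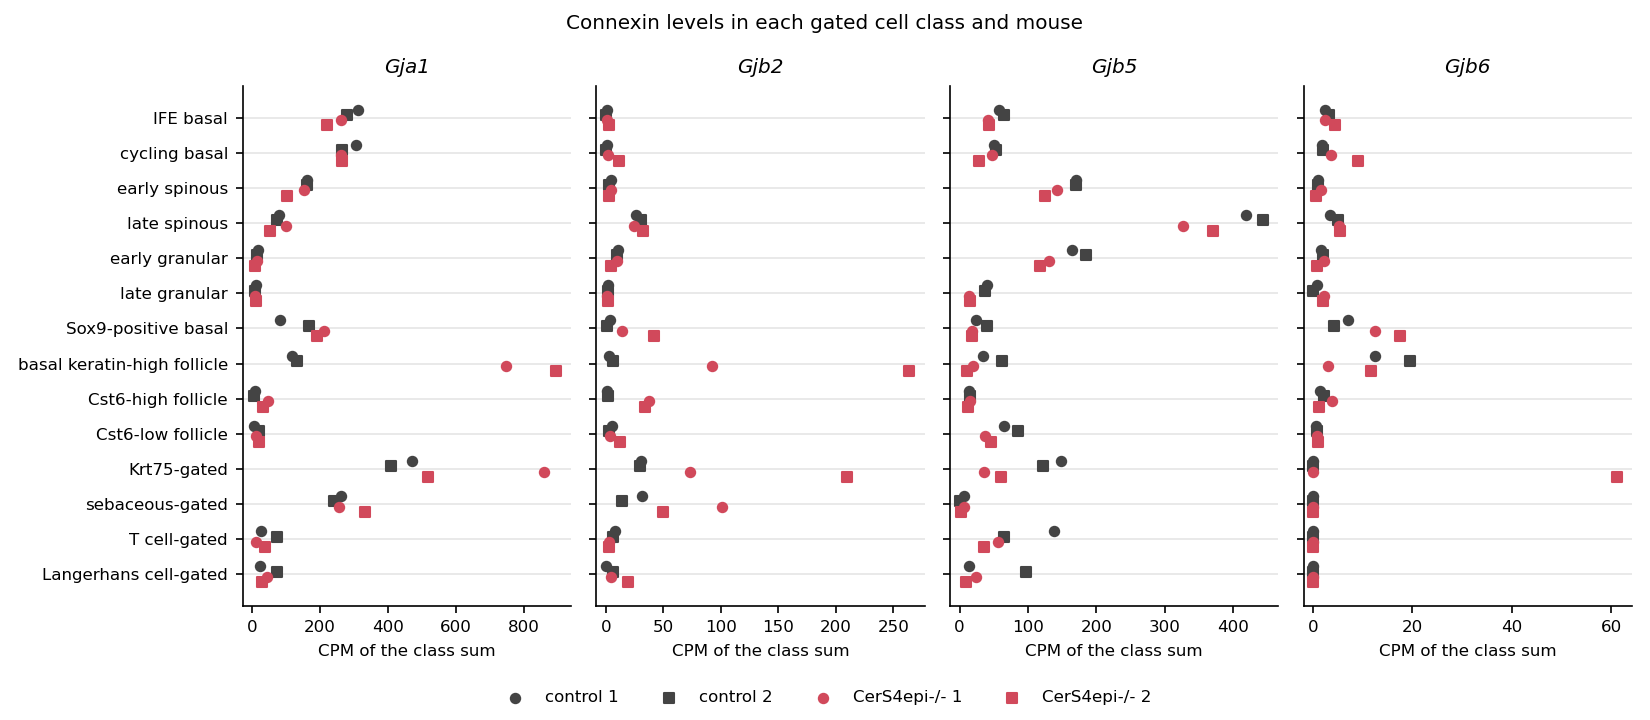
Levels of the 4 connexins in each gated cell class (vertical axis) in CPM of the class sum (horizontal axis, a separate scale for each gene), with 1 point for each mouse, grey for control and red for CerS4epi-/-. Gja1 and Gjb2 of the CerS4epi-/- mice stand apart in the basal keratin-high follicle cells, at 746 and 894 CPM and at 92.1 and 264 CPM.

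Between genotypes Gja1 was tested in 12 classes and rose in basal keratin-high follicle cells and in Sox9-positive basal cells. A rise called in Cst6-high follicle cells is given apart, since the filter on low counts passed a rise more readily than a fall there. Over all classes and genes tested, 3.18% of tests were called upwards and 2.14% downwards. The largest rise was in basal keratin-high follicle cells, which carry Krt79 or Krt17 together with Krt14 or Krt5. There Gja1 stood at 118 and 131 CPM in the control mice (38 and 40 counts in 101 and 85 cells) and at 746 and 894 CPM in the CerS4epi-/- mice (1507 and 1918 counts in 411 and 473 cells). Both CerS4epi-/- mice lay far above both control mice. The log2 fold change was 2.89 (SE 0.19, adjusted p = 1.02e-05 by edgeR), in a class in which 5.38% of all genes rose. The ratio of the pooled sums was 6.63, with a 95% counting interval of 5.30 to 8.41 that leaves out the spread between mice. Relative to IFE basal cells of the same mice, Gja1 in this class was lower in control mice (-1.27, SE 0.24, adjusted p = 0.00017) and higher in CerS4epi-/- mice (1.87, SE 0.17, adjusted p = 1.24e-10), so that the contrast over all 4 mice (0.97, SE 0.32, adjusted p = 0.0135; 39.5% of genes differed) averages opposite directions. That pooled contrast was 0.70 (adjusted p = 0.202) without CerS4epi-/- mouse 1 and 0.30 (adjusted p = 0.599) without CerS4epi-/- mouse 2.

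The Cst6-high follicle cells, differentiated cells of the same markers without basal keratins, held 7.15 and 6.38 CPM of Gja1 in control mice (5 and 3 counts) and 47.8 and 33.2 CPM in CerS4epi-/- mice (123 and 79 counts). The groups did not overlap, and the log2 fold change was 2.68 (SE 0.41, adjusted p = 0.000799 by edgeR; 6.08% of genes rose). The control sums lie near the limit of the filter on low counts, so that a rise was more readily tested here than a fall. The pooled ratio of 5.97, with its counting interval of 2.97 to 14.0, describes these libraries. In Sox9-positive basal cells the levels were 83.0 and 168 CPM in control mice and 212 and 190 CPM in CerS4epi-/- mice. Control mouse 2 lay close to the CerS4epi-/- mice. The log2 fold change of 0.75 (SE 0.18, adjusted p = 0.0168 by edgeR; 1.85% of genes rose) was lost under 5 of 13 alternatives, and without control mouse 1 it was 0.30 (adjusted p = 0.431).

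In the interfollicular classes no genotype difference of Gja1 passed. IFE basal cells gave a log2 fold change of -0.23 (SE 0.10, adjusted p = 0.273 by edgeR; 4.35% of genes differed), and early spinous cells -0.31 (SE 0.13, adjusted p = 0.256; 3.93%). Krt75-gated cells gave 0.65 (SE 0.24, adjusted p = 0.258; 0.889%). The genotype difference in the follicle was also set against that in IFE basal cells within one fit. Gja1 differed in this test in basal keratin-high follicle cells by 3.17 on the log2 scale (SE 0.33, adjusted p = 2.83e-09; 2.51% of genes were higher) and in Cst6-high follicle cells by 2.99 (SE 0.70, adjusted p = 0.00491; 2.09%). The latter was lost when control mouse 1 (adjusted p = 0.178) or control mouse 2 (adjusted p = 0.0734) was left out. Of the 48 such tests over the 4 connexins, these 2 passed, where 1.39% of the tests of all genes did in either direction.

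**Figure D3:**
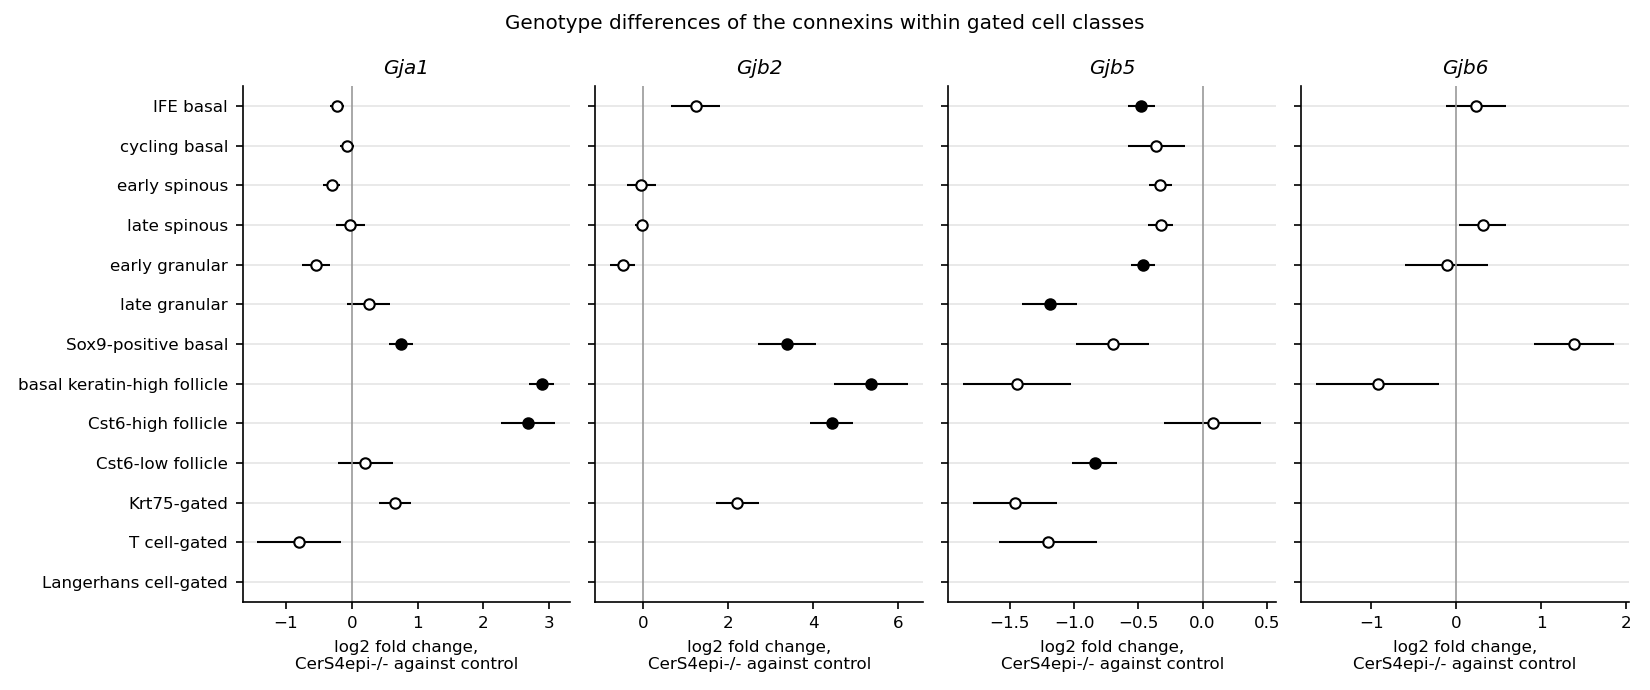
Log2 fold change of each connexin between CerS4epi-/- and control mice (horizontal axis) within each gated class (vertical axis), with bars of 1 SE from edgeR. Filled points passed an adjusted p of 0.05, and classes without a point were not tested for lack of counts. Gja1 and Gjb2 are shifted to the right in Sox9-positive basal, basal keratin-high and Cst6-high follicle cells. For Gjb2 there the filter on low counts left no other outcome. For Gja1 in Cst6-high follicle cells it passed a rise more readily than a fall. Gjb5 is shifted to the left in 11 of 12 classes, which all come from the same mice.

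Other properties of the basal keratin-high follicle cells moved with genotype. Krt6a, a keratin of the companion layer and of stressed epidermis, stood at 505 and 354 CPM against 4391 and 8400 CPM, and Krt14 at 4139 and 3607 CPM against 7998 and 8865 CPM. The median depth was 2435 and 2532 against 3794 and 3615 counts per cell, and the median mitochondrial share 10.04% and 8.87% against 11.2% and 11.3%. The 7 upper follicle markers, all of them detected in every mouse, summed to 17745 and 16988 CPM against 28828 and 35221 CPM, while the 5 inner bulge markers, 1 or 2 of which were at 0 in each mouse, summed to 311 and 261 CPM against 70.3 and 129 CPM. The 11 genes known to respond to dissociation summed to 11877 and 11797 CPM against 10041 and 6509 CPM. The 6 spinous markers were lower in the CerS4epi-/- mice, with 10746 and 14294 CPM against 7039 and 5777 CPM, as were the 8 outer bulge markers, with 5826 and 6266 CPM against 3898 and 3399 CPM. Of the cells in this class, 9.16% lay within 20% of the limit for Krt79 and Krt17 and 12.1% within 20% of that for Krt14 and Krt5. The part of each of these in the connexin difference was not tested, apart from the splits by Krt6a, Krt14 with Krt5, and Cst6 that follow, which were chosen after the values were seen.

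Split by Krt6a, the difference of Gja1 lay in the cells with a Krt6a count. These made up 14.9% and 12.9% of the basal keratin-high follicle cells of control mice (15 and 11 cells) and 46.7% and 61.5% of those of CerS4epi-/- mice (192 and 291 cells). Their Gja1 level was 53.6 and 103 CPM in control mice, from 2 and 4 counts, and 1246 and 1221 CPM in CerS4epi-/- mice, from 1420 and 1867 counts. The pooled ratio was 15.6, with a counting interval of 7.17 to 42.6. Cells without a Krt6a count held 126 and 135 CPM in control mice and 98.8 and 82.6 CPM in CerS4epi-/- mice. In these the order was the opposite one, with a log2 fold change of -0.44 that did not pass (adjusted p = 0.425 by edgeR). Depth differed as well, since CerS4epi-/- cells with a Krt6a count had a median of 4960.5 and 4491 counts and control cells with one 2179 and 1814 counts. In these cells Krt14 was 1554 and 3350 CPM in control mice and 10078 and 10360 CPM in CerS4epi-/- mice. Krt6a itself was 4366 and 2793 CPM against 7781 and 11794 CPM, so that the cells were not matched between genotypes.

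The share of cells with a Gja1 count gave the same picture: in CerS4epi-/- mice it was 71.4% and 72.2% of the cells with a Krt6a count and 20.1% and 14.3% of those without. In control mice it was 13.3% and 27.3% against 25.6% and 27.03%. When each cell of the class was thinned to 1200 counts, 9.90% and 14.1% of the control cells and 33.3% and 35.3% of the CerS4epi-/- cells kept a Gja1 count, against 23.8% and 27.1% and 44.0% and 49.9% before thinning. After thinning 0.704% to 4.41% of T cell-gated cells kept one. Among basal keratin-high follicle cells with Krt14 and Krt5 under an upper limit, Gja1 was 86.2 and 141 CPM against 256 and 350 CPM, and among those with little Cst6 it was 129 and 128 CPM against 773 and 1019.8 CPM. In both subsets the CerS4epi-/- mice stood above the control mice.

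The split was repeated in 3 other classes. In Sox9-positive basal cells, Gja1 was 262 and 308 CPM against 815 and 542 CPM in cells with a Krt6a count, of which control mice had 17 and 16 and CerS4epi-/- mice 112 and 98. Cells without one held 75.4 and 160 CPM against 89.5 and 111 CPM, and the genotypes overlapped. In Cst6-high follicle cells, those with a Krt6a count held 25.3 and 0 CPM against 108 and 85.4 CPM, from 2 and 0 counts in the control mice, where 0 counts allow up to 109 CPM, and those without 4.84 and 6.77 CPM against 12.4 and 6.96 CPM. In IFE basal cells the CerS4epi-/- mice lay below the control mice on both sides of the split: Gja1 stood at 343 and 307 CPM against 279 and 208 CPM in cells with a count and 310 and 278 CPM against 262 and 222 CPM in cells without. Of the Krt75-gated cells, 95% to 98.6% had a Krt6a count in every mouse.

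**Figure D4:**
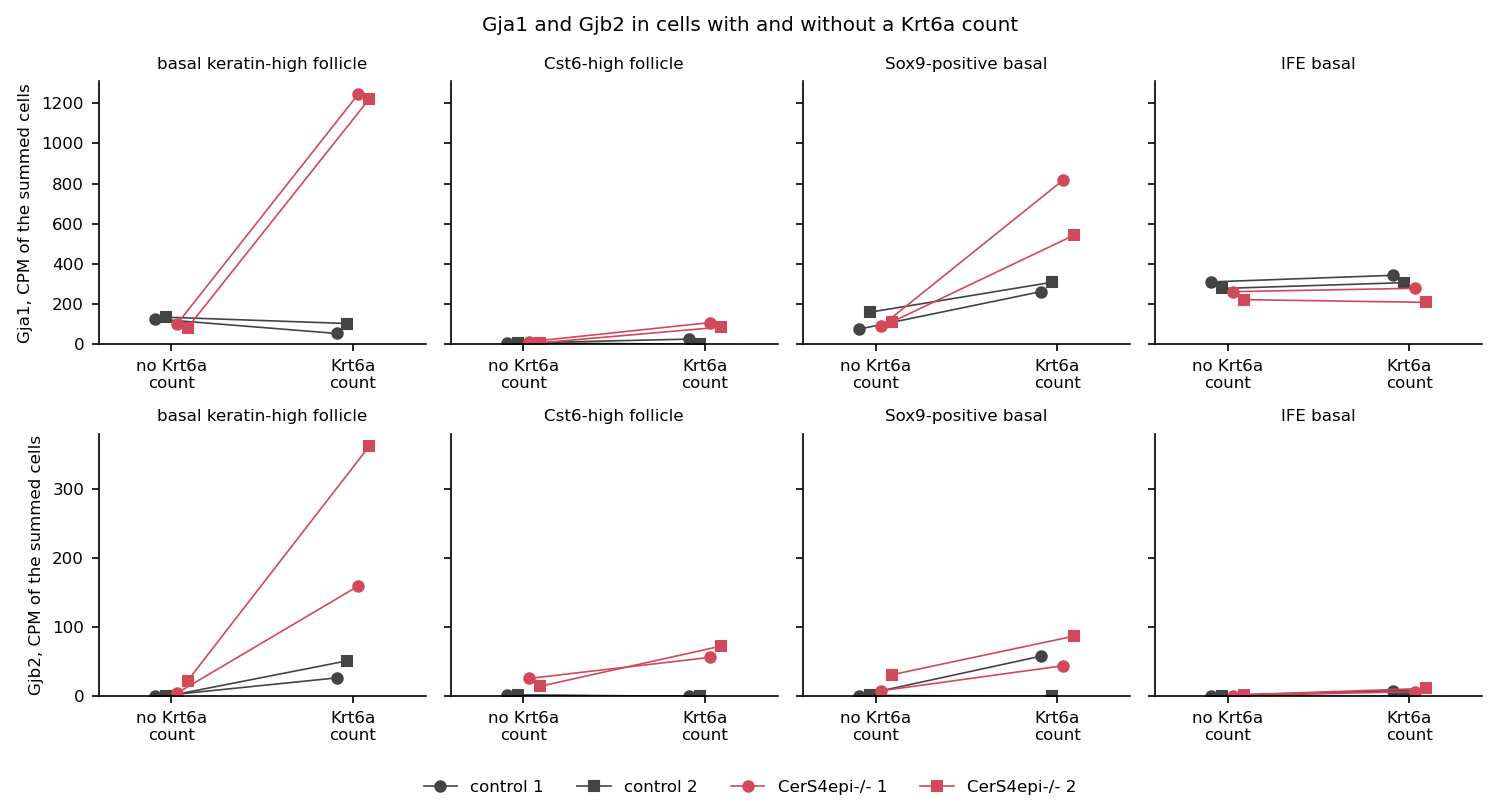
Gja1 (top) and Gjb2 (bottom) in CPM of the summed cells (vertical axis) for cells without and with a Krt6a count (horizontal axis) in 4 gated classes, with 1 line for each mouse, grey for control and red for CerS4epi-/-. In basal keratin-high follicle cells Gja1 of the CerS4epi-/- mice goes from 98.8 and 82.6 CPM to 1246 and 1221 CPM, while that of the control mice is 126 and 135 CPM in cells without and 53.6 and 103 CPM in cells with a Krt6a count.

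Gjb2 was sparse, with 10.5 and 10.6 CPM over all cells of the control mice and 15.5 and 32.5 CPM over those of the CerS4epi-/- mice. In the interfollicular epidermis it peaked in late spinous cells, with 26.1 and 30.2 CPM against 24.3 and 32.5 CPM, and 12.1% to 15.8% of these cells had a count. In IFE basal cells it was 1.36 and 0.46 CPM against 1.33 and 2.99 CPM, and in early spinous cells 4.69 and 3.16 CPM against 4.14 and 3.16 CPM. Late spinous cells thus stood above basal cells in every mouse, and the log2 fold change was 4.56 (SE 0.45, adjusted p = 1.46e-12 by edgeR). Early granular cells held 10.5 and 9.70 CPM against 9.37 and 4.16 CPM and were also above IFE basal cells (3.20, SE 0.57, adjusted p = 1.76e-06). In late granular cells the level was 0.70 to 2.30 CPM. Between genotypes Gjb2 did not pass in late spinous (-0.02, SE 0.15, adjusted p = 0.956; 3.86% of genes differed), early spinous (-0.03, SE 0.35, adjusted p = 0.974) or early granular cells (-0.47, SE 0.29, adjusted p = 0.367; 7.8%). The fitted difference in IFE basal cells, 1.25 (SE 0.57, adjusted p = 0.286), rests on a level of a few CPM.

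In basal keratin-high follicle cells Gjb2 stood at 3.10 and 6.53 CPM in control mice, from 1 and 2 counts, and at 92.1 and 264 CPM in CerS4epi-/- mice, from 186 and 567 counts. CerS4epi-/- mouse 2 was the higher one, and both were far above the control mice. The ratio of the pooled sums was 37.9, with a counting interval of 12.9 to 184, and the fitted log2 fold change was 5.36 (SE 0.87, adjusted p = 0.00341 by edgeR). Cst6-high follicle cells held 1.43 and 2.13 CPM, from 1 count each, against 37.3 and 34.1 CPM, from 96 and 81 counts. The pooled ratio was 20.9 (5.70 to 174), and the fitted log2 fold change 4.44 (SE 0.51, adjusted p = 7.65e-05). In Sox9-positive basal cells the levels were 3.56 and 1.37 CPM, from 3 counts and 1 count, against 14.3 and 41.5 CPM, from 38 and 81 counts, with a pooled ratio of 10.2 (3.86 to 37.9) and a fitted log2 fold change of 3.38 (SE 0.68, adjusted p = 0.00313). In all 3 classes Gjb2 passed the filter on low counts through the CerS4epi-/- mice, so that a tested value had to differ. The call in Sox9-positive basal cells was lost under 1 of 10 alternatives, without CerS4epi-/- mouse 2 (2.50), and that in Cst6-high follicle cells under 0 of 13. That in basal keratin-high follicle cells was lost under 2 of 15, with an adjusted p of 0.159 by edgeR with no filter. The fit with no filter called 35 of 16934 genes upwards and 2 downwards in this class, against 495 and 340 of 9206 in the main fit.

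Gjb2 was likewise split by Krt6a. Basal keratin-high follicle cells with a Krt6a count held 26.8 and 51.5 CPM of Gjb2, from 1 and 2 counts, against 160 and 362 CPM, and the pooled ratio was 6.99 (2.38 to 34.0). Those without one held 0 counts in both control mice, which allows up to 10.5 and 11.2 CPM, and 4.54 and 22.7 CPM in the CerS4epi-/- mice. In Cst6-high follicle cells Gjb2 was also present without Krt6a, at 1.61 and 2.26 CPM against 26.0 and 14.6 CPM. In Sox9-positive basal cells without a Krt6a count Gjb2 was 1.24 and 1.45 CPM, from 1 count each, against 8.14 and 31.4 CPM, from 18 and 50 counts. The pooled ratio was 13.4 (3.57 to 113). Those with one held 58.2 and 0 CPM, from 2 and 0 counts, where 0 counts allow up to 71.1 CPM, against 44.3 and 87.0 CPM. Their pooled ratio was 2.42, with an interval of 0.636 to 20.5 that includes 1. Such intervals leave out the spread between mice and are no test of genotype. Cells with a Gjb2 count made up 0.990% and 2.35% of the control and 10.5% and 20.1% of the CerS4epi-/- basal keratin-high follicle cells, against 0.676% to 1.85% of T cell-gated cells, so that the control shares lie near background. The T cell-gated cells with a Gjb2 count were deep, with a median of 4807 to 28279 counts per mouse, and whether they are doublets was not tested. In the CerS4epi-/- mice 79.1% and 81.1% of the cells with a Gjb2 count also had a Gja1 count, against 39.9% and 42.1% of the cells without one, but cells with a Gjb2 count were deeper, with a median of 6709 and 5012 counts against 3590 and 3291.5. Against IFE basal cells, Gjb2 of this class was higher in the fit of the CerS4epi-/- mice (6.40, SE 0.36, adjusted p = 1.84e-15 by edgeR) and did not pass in that of the control mice (2.33, SE 1.12, adjusted p = 0.216).

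The Krt75-gated cells held Gjb2 in all mice, at 30.7 and 29.8 CPM in control mice and 72.8 and 210 CPM in CerS4epi-/- mice, from 12, 10, 20 and 55 counts. The groups did not overlap. Gjb2 passed the filter on low counts here through the CerS4epi-/- mice as well, so that a tested value had to differ. The log2 fold change of 2.22 (SE 0.50, adjusted p = 0.0796 by edgeR) did not pass, and 25 of the 55 counts of CerS4epi-/- mouse 2 came from 1 cell. Sebaceous-gated cells held 31.3 and 14.2 CPM, from 9 counts and 1 count, against 101 and 49.5 CPM, a pooled ratio of 2.74 (1.42 to 5.93) with no test. Against IFE basal cells the Krt75-gated class was higher both in control mice (5.10, SE 0.56, adjusted p = 2.11e-09) and in CerS4epi-/- mice (6.00, SE 0.62, adjusted p = 2.97e-09). In barcodes of 10 to 200 counts Gjb2 stood at 4.09 and 6.31 CPM against 17.3 and 14.5 CPM, so that free RNA carried more Gjb2 in the CerS4epi-/- libraries too. T cell-gated cells held 2, 1, 1 and 1 Gjb2 counts, too few for an order to be read.

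Gjb5 had its maximum in late spinous cells, at 419 and 444 CPM in control mice and 327 and 370 CPM in CerS4epi-/- mice, where 69.5% to 74.2% of cells had a count. Early spinous cells held 170 and 171 CPM against 142 and 125 CPM, and IFE basal cells 58.3 and 65.7 CPM against 42.2 and 43.7 CPM. The level thus rose from basal to late spinous cells in each mouse, with log2 fold changes against IFE basal cells of 1.62 (SE 0.16, adjusted p = 9.08e-12 by edgeR) and 3.16 (SE 0.17, adjusted p = 4.09e-22). It then fell over the granular layer, from 164 and 185 CPM against 130 and 117 CPM in early granular cells to 39.9 and 37.6 CPM against 14.0 and 15.1 CPM in late granular cells. Early granular cells were above IFE basal cells (2.09, SE 0.17, adjusted p = 3.38e-16). For late granular cells the direction against IFE basal cells depends on the scaling: the TMM fit gave 0.45 (SE 0.20, adjusted p = 0.0372) and class totals -1.01 (SE 0.20, adjusted p = 8.29e-06), the sign seen in the CPM. The TMM call was also lost without control mouse 1 (adjusted p = 0.143) or control mouse 2 (adjusted p = 0.123). Basal keratin-high, Cst6-high and Sox9-positive basal cells held 11.2 to 62.0, 12.2 to 15.9 and 18.5 to 39.6 CPM, and each was below IFE basal cells (-1.04, -1.41 and -1.11, with adjusted p = 0.000609, 2.27e-06 and 0.00025), in contrasts in which 39.5%, 63.3% and 10% of genes differed. The basal keratin-high call was lost without CerS4epi-/- mouse 2 (-0.71, adjusted p = 0.0697), at a limit of 10% mitochondrial counts (-0.72, adjusted p = 0.0639) and in control mice alone (-0.41, adjusted p = 0.541), of which mouse 2 held 62.0 CPM against 65.7 CPM in its IFE basal cells.

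Between genotypes Gjb5 fell in 4 of the 12 classes tested, where 2.14% of the tests of all genes were called downwards. Its fitted difference was negative in 11. All classes come from the same mice, so that these signs are not separate observations, and the share of all genes with such signs was not counted. Of the 4 called classes the late granular cells had the largest difference, from 39.9 and 37.6 CPM to 14.0 and 15.1 CPM (log2 fold change -1.19, SE 0.22, adjusted p = 0.000966 by edgeR; 5.03% of genes fell). Early granular cells went from 164 and 185 CPM to 130 and 117 CPM (-0.46, SE 0.09, adjusted p = 0.0141; 3.21%), and IFE basal cells from 58.3 and 65.7 CPM to 42.2 and 43.7 CPM (-0.48, SE 0.10, adjusted p = 0.0322; 1.57%). Cst6-low follicle cells held 64.8 and 85.1 CPM against 37.2 and 46.0 CPM (-0.84, SE 0.17, adjusted p = 0.0105; 2.44%). In all 4 called classes both CerS4epi-/- mice lay below both control mice. These classes were picked by their calls, so that the order of the mice adds no support. With class totals in place of TMM 2 further classes passed, early spinous cells (-0.35, adjusted p = 0.0410) and basal keratin-high follicle cells (-1.61, adjusted p = 0.0240), which gave -0.33 (adjusted p = 0.0555) and -1.44 (adjusted p = 0.0533) with TMM. In basal keratin-high follicle cells class totals also moved the median log2 fold change of all genes from 0.01 to -0.15.

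The remaining classes of Gjb5 missed the threshold. Late spinous cells, where it is most abundant, gave -0.33 (SE 0.10, adjusted p = 0.0955 by edgeR), and Krt75-gated cells, with 149 and 122 CPM against 36.4 and 61.1 CPM, gave -1.46 (SE 0.33, adjusted p = 0.0767). The groups did not overlap in either. Cst6-high follicle cells, with 14.3 and 14.9 CPM against 15.9 and 12.2 CPM, had a fitted difference of 0.08 (SE 0.38, adjusted p = 0.937). Gjb5 was lower in the free RNA of the CerS4epi-/- libraries as well: barcodes of 10 to 200 counts held 111 and 110 CPM against 73.6 and 56.1 CPM. In T cell-gated cells the level was 138 and 65.2 CPM against 55.9 and 35.8 CPM, but 33, 10, 21 and 14 counts lay there in 5, 4, 4 and 8 cells, a few cells with several counts each. Whether these are doublets was not tested. The part of free RNA in the differences of the low classes was not tested. The genotype difference of Gjb5 passed against that in IFE basal cells in 0 of 12 classes by edgeR (adjusted p from 0.229 to 1; the largest difference was -1.13, SE 0.77, in Langerhans cell-gated cells). The call in IFE basal cells was lost under 6 of 13 alternatives (adjusted p up to 0.255), that in Cst6-low follicle cells under 3, in late granular cells under 2 and in early granular cells under 1. In IFE basal cells the adjusted p was 0.138 without control mouse 1, 0.255 without control mouse 2 and 0.0576 without CerS4epi-/- mouse 1. In late granular cells it was 0.0942 without CerS4epi-/- mouse 1, and in early granular cells 0.113 without CerS4epi-/- mouse 2.

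Gjb6 was sparse as well, with 2.22 and 2.77 CPM over all cells of the control mice and 3.46 and 5.20 CPM over those of the CerS4epi-/- mice. It was detected in basal keratin-high follicle cells at 12.4 and 19.6 CPM against 2.97 and 11.6 CPM, from 4, 6, 6 and 25 counts, and in Sox9-positive basal cells at 7.11 and 4.10 CPM against 12.4 and 17.4 CPM, from 6, 3, 33 and 34 counts. The genotype differences of -0.93 (SE 0.72, adjusted p = 0.496 by edgeR) and 1.39 (SE 0.47, adjusted p = 0.119) did not pass. Late spinous cells held 3.34 and 5.02 CPM against 5.18 and 5.36 CPM (0.31, SE 0.28, adjusted p = 0.592), and IFE basal cells 2.47 and 3.22 CPM against 2.33 and 4.34 CPM (0.23, SE 0.36, adjusted p = 0.789). Of the 5 classes tested 0 passed by edgeR or DESeq2, which left 3 without an adjusted p, and 1 had an unadjusted edgeR p under 0.05, the Sox9-positive basal cells. In that class Gjb6 entered the test through the CerS4epi-/- mice, as the control sums lie at or below the filter limit. Against IFE basal cells, Sox9-positive basal cells were higher (1.84, SE 0.42, adjusted p = 0.0018), as were basal keratin-high follicle cells (1.39, SE 0.51, adjusted p = 0.0254) and late spinous cells (0.89, SE 0.35, adjusted p = 0.0244), and early spinous cells lower (-1.39, SE 0.51, adjusted p = 0.0282). These calls rest on few counts and were lost under 4 to 6 of 14 alternatives each, among them at least 1 mouse left out for each, with adjusted p from 0.0525 to 0.119. The Krt75-gated class had 61.1 CPM in CerS4epi-/- mouse 2 and 0 counts in the other 3 mice, which allows up to 7.68 to 10.9 CPM. That mouse alone carries the edgeR call of this class as higher than IFE basal cells, which was lost under 3 of 14 alternatives. The 16 counts lay in 3 cells, with 9 of them in the cell that carried 25 Gjb2 counts. This cell had no Krt6a count, and neither had another of the 3, which held 2 counts. T cell-gated, Langerhans cell-gated and sebaceous-gated cells had 0 counts in every mouse.

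The order of the levels left many neighbours unresolved. For Gja1, the means over 4 mice descended from Krt75-gated and basal keratin-high follicle cells over cycling, IFE and Sox9-positive basal cells to early and late spinous cells, and of these 6 steps edgeR separated basal keratin-high follicle from cycling basal cells (0.97, adjusted p = 0.0143) and early from late spinous cells. The former step holds for the pooled mice: basal keratin-high follicle cells lay below cycling basal cells in both control mice (118 and 131 against 304 and 263 CPM) and above them in both CerS4epi-/- mice (746 and 894 against 261 and 265 CPM). For Gjb2, 0 of the 12 steps passed by edgeR and 1 had an unadjusted p under 0.05, the step from Krt75-gated to late spinous cells (1.17, SE 0.52, adjusted p = 0.0766). For Gjb5 the step from late to early spinous cells was the clearest (1.53, SE 0.16, adjusted p = 1.67e-11). For Gjb6 the step from Sox9-positive basal to late spinous cells passed (0.96, SE 0.40, adjusted p = 0.0377).

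Of 13 other connexin genes examined, 2 had enough counts to be tested in at least 1 class, and both stayed at a few CPM. Gjc1 (Cx45) held 1.48 and 1.42 CPM in IFE basal cells of control mice and 1.66 and 2.84 CPM in those of CerS4epi-/- mice (0.66, SE 0.40, adjusted p = 0.421 by edgeR). Gja4 (Cx37) was tested in late spinous (0.34, SE 0.35, adjusted p = 0.651) and early spinous cells (0.04, SE 0.47, adjusted p = 0.975). Of these 3 tests 0 passed by edgeR or DESeq2, and 0 had an unadjusted p under 0.05 by either tool.

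The pannexins, channel proteins related to connexins in form, gave 11 tests, all of Panx1, of which 0 passed by edgeR or DESeq2 and 2 had an unadjusted edgeR p under 0.05. Of 11 partners and trafficking factors of connexins, 9 could be tested, in 108 tests, of which 6 passed upwards and 4 downwards, where over all genes 3.18% and 2.14% of tests did. Cdh1 (E-cadherin) and Ctnnb1 (beta-catenin), proteins of adherens junctions, rose in basal keratin-high follicle cells. Cdh1 went from 260 and 238 CPM to 378 and 428 CPM (0.85, SE 0.16, adjusted p = 0.00839) and Ctnnb1 from 653 and 623 CPM to 1008 and 1145 CPM (0.92, SE 0.15, adjusted p = 0.00428), in the class in which 5.38% of genes rose. Both CerS4epi-/- mice stood above both control mice for each. Cav1 (caveolin), a membrane scaffold, fell in the same class, from 266 and 163 CPM to 108 and 89.9 CPM (-0.96, SE 0.22, adjusted p = 0.0176; 3.69% of genes fell), and also in early spinous cells (-0.38, SE 0.09, adjusted p = 0.0269; 1.37%) and in Sox9-positive basal cells (-0.44, SE 0.12, adjusted p = 0.0324; 1.35%). In late granular cells Cnst (consortin), a connexin trafficking receptor, rose (0.71, SE 0.12, adjusted p = 0.000447), as did Ctnnb1 (0.50, SE 0.12, adjusted p = 0.00662) and Ezr (ezrin; 0.37, SE 0.12, adjusted p = 0.0399), while Cdh1 fell (-0.69, SE 0.22, adjusted p = 0.0408), in a class in which 9.23% of all genes rose and 5.03% fell. Cdh1 also rose in Cst6-high follicle cells (0.46, SE 0.12, adjusted p = 0.0278; 6.08% of genes rose).

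The patterns of the members over the 52 sums of 13 classes and 4 mice were set against those of 6504 genes with a mean of at least 20 CPM. The 3 genes of highest Pearson correlation to Gja1 were Myof (0.91), Nbl1 (0.87) and Dsg3 (0.86), and to Gjb5 Scd1 (0.92), Adtrp (0.88) and Ss18 (0.84). For Gjb2 they included Pinlyp (0.74) and Tubb2b (0.71), and for the sparse Gjb6 they were Psmb6, Hadha and Cdcp1 (0.58 to 0.59). Among the 4 connexins themselves Gja1 reached 0.38 with Gjb6 and 0.37 with Gjb2, and Gjb5 lay between -0.07 and 0.10 with the others. Sums of one mouse share a library and classes differ in depth and cell number, so that these values are descriptions.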

How the data were processed

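Cells of the epidermis of 2 control and 2 CerS4epi-/- mice were sequenced with BD Rhapsody. The authors trimmed reads with fastp 0.23.2, mapped them to GRCm39 with STAR 2.7.10a and deposited unfiltered expected counts per gene and barcode, in which reads mapping to several genes are shared by expectation maximization. Depth per library was 39231945 to 53106317 counts.

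A barcode was taken as a cell from 1200 counts upwards if mitochondrial genes gave 20% of them or less. No doublet caller was run. Cells were assigned to 15 marker gates in a fixed order, with marker limits set after their distributions were seen, and a class was tested if each mouse had 20 or more of its cells, which left 13. The 4 genes, the gene lists and the tests were chosen with earlier results of these data known. Counts were summed per class and mouse, rounded, and tested with edgeR 4.0.16 in R 4.3.3 (quasi-likelihood test, TMM, filterByExpr, Benjamini-Hochberg adjustment over all genes of a contrast, threshold 0.05): genotype within each class, class against IFE basal cells with the mouse as block, and their interaction. SE is the log2 fold change over the root of F. The genotype fit was run on simulated counts in basal keratin-high follicle, Cst6-high follicle and IFE basal cells, also with DESeq2 and a replicate block. So were the contrast of late spinous cells and the interaction in basal keratin-high follicle cells. Other classes and alternatives were not simulated. Alternatives were DESeq2 1.42.0, its size factors, class totals, no filter, a replicate block, leaving out each mouse, stricter cell limits, doubled gate limits and leaving out the deepest 5% of cells. Shares of cells with a count were also taken after thinning to 1200 counts. Exact 95% intervals cover counting error only. Genes named are the 4 connexins, called genes of the lists, and the 3 most correlated genes (log2 CPM, prior count 2). Promoters are from RefSeq, in which all 4 symbols matched. CPM cannot be compared between genes. Some genes are not reported here, and counts over the lists leave them out.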

Additional observations from a re-analysis of the deposited data

Results flagged for a closer look

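In basal keratin-high follicle cells the genotype difference of Gja1 was larger than that in IFE basal cells by 3.17 on the log2 scale (SE 0.33, adjusted p = 2.83e-09 by edgeR). A test of the difference between classes drew attention to it. Both CerS4epi-/- mice were above both control mice in the follicle class, while both were below them in IFE basal cells. The Krt6a split, in which cells without a Krt6a count gave no rise, belongs beside it.

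In Cst6-high follicle cells the same test gave 2.99 (SE 0.70, adjusted p = 0.00491), with Gja1 higher in 2 of 2 CerS4epi-/- mice than in either control mouse. The control sums held 5 and 3 counts, and the call was lost without control mouse 1 (adjusted p = 0.178) and without control mouse 2 (adjusted p = 0.0734).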

How the results depend on the processing

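Between genotypes Gja1 was tested in 12 classes, Gjb2 in 8, Gjb5 in 12 and Gjb6 in 5. Over all classes and genes 3.18% of tests were called upwards and 2.14% downwards. The filter on low counts left no other outcome for the 3 calls of Gjb2. It passed a rise of Gja1 in Cst6-high follicle cells more readily than a fall. With these included, 10 tests of the 4 connexins passed. This count was 6 with DESeq2, 6 at a limit of 10% mitochondrial counts, 17 with no filter on low counts and 9 to 16 when 1 mouse was left out, the highest without CerS4epi-/- mouse 1. With the replicate number as a block it was 17. The block also moved the calls of all genes. In late spinous cells they went from 257 upwards and 199 downwards to 729 and 625, and in late granular cells from 700 and 381 to 520 and 280. Whether same-numbered mice were handled together is not stated. Their deviations correlated at -0.20 (Langerhans cell-gated cells) to 0.16 (late spinous cells) over the classes. Against IFE basal cells 29 of 48 tests passed, and 23 to 36 under the alternatives. In these contrasts 10% (Sox9-positive basal cells) to 80.1% (early granular cells) of all genes differed. The interaction count of 2 became 7 with no filter and 1 to 5 without 1 mouse; its DESeq2, block and cell-limit versions were not run.

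Signs turned for Gja1 between genotypes in basal keratin-high follicle cells without a Krt6a count (-0.44). Against IFE basal cells they turned for Gja1 in basal keratin-high follicle cells of control mice alone (-1.27) and for Gjb5 in late granular cells with class totals (-1.01), doubled gate limits (-0.083) and the deepest 5% of cells left out (-0.37). Gjb6 in Krt75-gated cells ranged from -5.91 to 2.55 without 1 mouse, and turned without CerS4epi-/- mouse 2 (-5.91), in control mice alone (-5.93) and with doubled gate limits (-5.17), where nearly all sums are at 0. The subsets of follicle cells, the fits of one genotype alone and class totals were chosen after seeing the data. Depth limits Gjb2 in the follicle classes, where control sums hold 1 to 3 counts.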
